A study of Mus musculus with 4 samples.

Results

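The transcripts of Eomes, Ebf2, Ebf3, Lbhd2, Sln, Ctxn3, Ano2 and Igfbpl1 were followed across 4 arrays of mouse hippocampus. These 8 genes, of 37311 genes on the array, were selected on measured values: each differed strongly between the array of wild-type (WT) mice and the array of Rp58 hetero-KO mice at 18 months, and several are known from Eomes- and Ebf-expressing neurons. Their 18-month difference is therefore a description and was given no test. The question was which of the arrays stood apart for these genes, and whether genes that mark particular cells or brain regions moved with them.

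Rp58 is the older name of Zbtb18, a DNA-binding repressor of the zinc finger class that acts in developing cortical neurons. The hetero-KO mice carry 1 knocked-out copy, and the sources used here do not say which part of the gene was removed. The arrays covered WT and hetero-KO mice at 4 months and at 18 months, 1 array for each of the 4 groups. The RNA on an array was a mixture made from 3 samples of its group, so the differences among the animals of a group could not be seen. The older groups are 18 months in the age label, 1.5 years in the title and 12 to 18 months in the description. The labels give neither the sex of the mice nor the limits of the dissection. With 1 array per group, no comparison here has a replicate check, and no p-value is given.

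Eomes, also called Tbr2, is a T-box transcription factor. In the adult brain it is known from the intermediate progenitors of the dentate gyrus, the mitral and tufted cells that carry the output of the olfactory bulb, and the unipolar brush cells of the cerebellum. Ebf2 and Ebf3 belong to the early B-cell factors, helix-loop-helix transcription factors that promote neuronal differentiation and are known from Cajal-Retzius cells, the early reelin-secreting neurons of the cortical surface, and from the olfactory system. The remaining genes encode smaller effector proteins. Lbhd2 encodes a protein with an LBH domain and is known as a marker of mitral cells. Sln encodes sarcolipin, a small membrane peptide that inhibits the calcium pump of the endoplasmic reticulum. Ctxn3 encodes a cortexin, a small membrane protein of neurons, Ano2 a calcium-activated chloride channel of olfactory sensory neurons, and Igfbpl1 a secreted protein related to the IGF-binding proteins and found in newly formed neurons.

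Each value rests on 1 spot with a probe of 60 bases, so the probes themselves are the first thing to examine. The first 30 bases of the probes that measured Eomes and Lbhd2 and of both Ano2 probes are shown, because Lbhd2 stood under its older name A230065H16Rik on the array and the Ano2 probes gave opposite 18-month differences.
Eomes: gctatgaagaacgagtgcccggtgctatta
Lbhd2: atctggaacatacccctctttgttcagtgg
Ano2, probe used: gacaaggatgcatataatgcaactcaccac
Ano2, other probe: tcccataaggagcatatcactgttggagag
In build mm9 (NCBI37), the build the file headers name, these probes lay at chr9:118394425-118394484, chr12:112650200-112650259, chr6:125990063-125990122 and chr6:125906945-125907004. The probes used for Ebf2, Ebf3, Sln and Igfbpl1 lay at chr14:68048145-68048204, chr7:144385490-144385549, chr9:53701574-53701633 and chr4:45822379-45822438. Whether a probe lies in an exon or a UTR was not looked up, since no annotation of that build was used here. The genes lie on 7 chromosomes, with Eomes and Sln on the same one, so that they are not one cluster of neighbours.

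Promoter sequence was taken from RefSeq's table of build GRCm38.p6, which differs from the build of the probes. Of the 8 genes, 4 had an entry there, with 6 start sites in all. The 250 bases before the start are shown for 1 start site of each of these genes, since genes that move together may share sequence. Capitals mark a match to one of the motifs searched.
Eomes: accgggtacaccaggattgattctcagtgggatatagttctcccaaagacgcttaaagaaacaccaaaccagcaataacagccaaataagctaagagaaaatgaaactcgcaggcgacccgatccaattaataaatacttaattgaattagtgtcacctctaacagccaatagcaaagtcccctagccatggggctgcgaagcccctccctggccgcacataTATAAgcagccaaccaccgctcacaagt
Ebf3: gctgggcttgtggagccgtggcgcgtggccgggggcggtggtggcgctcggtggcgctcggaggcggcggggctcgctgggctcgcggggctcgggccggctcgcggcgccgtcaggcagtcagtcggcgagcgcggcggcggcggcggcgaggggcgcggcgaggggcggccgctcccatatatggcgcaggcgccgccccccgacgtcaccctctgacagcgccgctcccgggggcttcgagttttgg
Lbhd2: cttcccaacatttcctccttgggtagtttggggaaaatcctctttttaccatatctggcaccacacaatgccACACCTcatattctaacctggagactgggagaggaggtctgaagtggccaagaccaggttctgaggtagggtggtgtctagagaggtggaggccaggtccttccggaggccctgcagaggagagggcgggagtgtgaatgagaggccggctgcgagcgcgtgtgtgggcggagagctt
Ano2: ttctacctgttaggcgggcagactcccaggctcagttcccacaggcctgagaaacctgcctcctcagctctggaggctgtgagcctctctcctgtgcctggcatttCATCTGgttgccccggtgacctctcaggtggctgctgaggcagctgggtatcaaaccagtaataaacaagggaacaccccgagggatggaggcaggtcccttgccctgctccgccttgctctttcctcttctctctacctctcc
The windows are chr9:118477939-118478188 on the plus strand, chr7:137314446-137314695 on the minus strand, chr12:111406559-111406808 on the plus strand and chr6:125710938-125711187 on the plus strand. The motifs were searched on both strands, and they do not overlap one another in these windows. TATAA, the core of the TATA box, was found in Eomes, 28 bases before the start; it was in 22.8% of all 32851 promoter windows. AGGTGT, the core bound by T-box factors, was found on the minus strand in Lbhd2, 178 bases before the start, and in 11.8% of all windows. CATCTG, the core bound by Zbtb18, was found in the Ano2 window shown, 144 bases before the start, and in 14.4% of all windows. It was absent from the windows of the other Ano2 start sites. TCCCNNGGGA, the palindrome bound by early B-cell factors, was in 0 of the 6 windows and in 0.779% of all windows. No motif was found in more than 1 of the windows. Their base composition also varied, from 46.4% G and C in Eomes to 80.0% in Ebf3.

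The level of a gene is given as the spot signal over the array's 75th percentile, on a linear scale. That percentile was between 1714 and 2111 on the 4 arrays, and 77.9% to 81.9% of spots were well above background, the scanner software's own test. The targeted gene did not check the labels: Zbtb18 had levels of 17.5 and 15.2 in WT and hetero-KO at 4 months and of 18.9 and 21.4 at 18 months. Signal of the Y-linked gene Eif2s3y failed the background test on the 4-month hetero-KO array and stood at levels of 0.673, 1.30 and 1.33 on the others (WT at 4 months, then WT and hetero-KO at 18 months). Xist was well above background on both 4-month arrays and on neither 18-month array. The pools of the 2 ages thus differed in sex makeup, which in the age comparisons below cannot be told apart from age. At 4 months the pools differed in sex makeup between the genotypes as well, whereas the 18-month arrays were close in these genes. Markers of adjoining regions differed too: the summed level of 15 thalamus and habenula markers was 39.0, 30.9, 17.6 and 18.8 in WT and hetero-KO at 4 months and WT and hetero-KO at 18 months, and that of 12 striatum markers was 22.2, 52.9, 22.1 and 23.6. Markers of the hippocampus itself were present on all 4 arrays, with Prox1, a transcription factor of dentate granule cells, at levels of 1.92 to 2.27, and Wfs1, a marker of CA1 pyramidal cells, at levels of 5.18 to 10.4.

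A second deposited source did not carry the 18-month difference. The authors' deposited table of all samples equals the scanner signal over its 75th percentile for the 4-month arrays, but no scanner file matches its 18-month columns; the correlation of their log2 values with the scanner files was 0.982 to 0.985, no higher for the file of the same label than for the 4-month files. In the authors' deposited table, the 18-month values of Eomes were 0.00427 (WT) and 0.00423 (hetero-KO), those of Lbhd2 0.144 and 0.161, and those of Sln 0.0966 and 0.129. Ctxn3 was higher in hetero-KO in the authors' deposited table, at 0.244 against 0.130. In the authors' deposited table the count of the 8 genes at least 2-fold below WT at 18 months was 0. Which arrays its 18-month columns come from is not known, and all values that follow were taken from the scanner files.

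For all 8 genes the highest level was that of the 18-month WT array and the lowest that of the 18-month hetero-KO array, with the 4-month arrays between them. For Sln the lowest place rests on a 1.02-fold margin and passes to WT at 4 months with normexp background, quantile or median scaling, and for Ano2 hetero-KO at 18 months is not the lowest with the mean of its probes. On the scanner arrays the genes were lower in hetero-KO than in WT at 18 months by 5.18-fold to at least 17.3-fold. Over all genes, 0.99% (289 of 29190) were at least 2-fold lower in that comparison, and 0.92% of the genes within the same range of mean level. These shares describe the background only, because this comparison chose the genes.

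**Figure D1:**
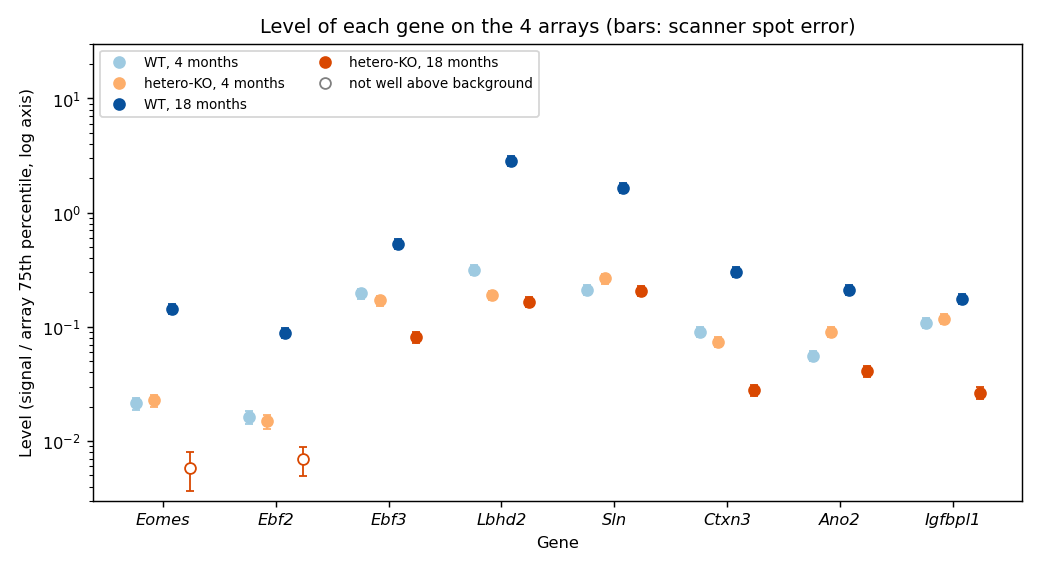
Level of each of the 8 genes on the 4 arrays on a log axis, as the spot signal over the array's 75th percentile; bars are the scanner software's error of the spot and open circles are spots not well above background. The 18-month WT array (dark blue) lies highest for all 8 genes and the 18-month hetero-KO array (dark orange) lowest, by a margin of 1.02-fold for Sln that other scalings turn round.

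The level of Eomes, the T-box factor, was 0.0214 (WT) and 0.0227 (hetero-KO) at 4 months, and 0.143 (WT) and 0.00579 (hetero-KO) at 18 months. The last of these was not well above background, so the 18-month difference is a bound, at least 17.3-fold lower in hetero-KO. The 4-month arrays were near each other, and 18-month WT lay 6.31-fold above the higher of them.

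Ebf2 followed the same order, with levels of 0.0163 and 0.0149 in WT and hetero-KO at 4 months and of 0.0884 and 0.00690 at 18 months. The last of these spots again failed the background test, and the bound was at least 10.7-fold lower than in WT. The WT array of 18 months was 5.43-fold above the next array.

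Ebf3 had levels of 0.197 and 0.171 at 4 months and of 0.530 and 0.0811 at 18 months, in the same order, and was 6.53-fold lower in hetero-KO at 18 months. Unlike Eomes and Ebf2 it was well above background on all 4 arrays. Its 18-month arrays lay on either side of the 4-month arrays, 2.69-fold above the next in WT and 2.11-fold below the next in hetero-KO.

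Lbhd2, the mitral cell marker, had a level of 2.85 in WT at 18 months, against 0.317 and 0.189 in WT and hetero-KO at 4 months and 0.166 in hetero-KO at 18 months. It was 17.2-fold lower in hetero-KO than in WT at 18 months. The hetero-KO array of 18 months was only 1.14-fold below the hetero-KO array of 4 months, so most of the gap lay on the side of the WT array, 8.98-fold above the next.

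Sln, the calcium pump inhibitor, showed the same form. Its levels were 0.210 and 0.266 at 4 months in WT and hetero-KO, and 1.64 and 0.206 at 18 months. It was 7.94-fold lower in hetero-KO at 18 months, yet there it differed from WT at 4 months by only 1.02-fold.

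Ctxn3, the cortexin, had levels of 0.0905 and 0.0735 in WT and hetero-KO at 4 months and of 0.305 and 0.0280 at 18 months. It was 10.9-fold lower in hetero-KO at 18 months. Both 18-month arrays stood away from the rest, 3.37-fold above the next in WT and 2.63-fold below the next in hetero-KO.

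Ano2, the chloride channel, had levels of 0.0555 and 0.0907 in WT and hetero-KO at 4 months and of 0.211 and 0.0407 at 18 months. Its 18-month fold of 5.18 was the smallest among the 8 genes, and its WT array of 18 months was 2.33-fold above the next.

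Igfbpl1, the gene of newly formed neurons, differed from the others in where its gap lay. Its levels were 0.109 and 0.117 at 4 months in WT and hetero-KO and 0.175 and 0.0264 at 18 months, a 6.64-fold lower level in hetero-KO. The WT array of 18 months was only 1.5-fold above the next array, while the hetero-KO array was 4.12-fold below the next.

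Taking the mean log2 level of the 4-month arrays as the reference, the share of the 18-month gap that lay on the WT side was 93.5% for Sln and 86.2% for Lbhd2. It was 73.3%, 66.2% and 65.7% for Ebf2, Ano2 and Eomes, where the shares of Ebf2 and Eomes use a bound for hetero-KO. Ebf3 and Ctxn3 were split more evenly, at 56.5% and 55.2%, and Igfbpl1 had 23.3%. From that reference, the gap of Sln and Lbhd2 lay mainly on the WT side and that of Igfbpl1 mainly on the hetero-KO side. Ebf3 and Ctxn3 had it on both sides. The 4-month pools differed from the 18-month pools in sex makeup and in markers of adjoining regions. The part of these differences in the shares was not tested. The hetero-KO side depended on the processing. With normexp background the log2 age difference in hetero-KO was −0.77 for Ebf3 and −0.75 for Ctxn3, against −1.08 and −1.40.

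The size of the 18-month difference also changed with the processing. With normexp background, which raises dim spots, the log2 difference was −1.78 for Eomes and −1.44 for Ebf2, in place of bounds of −4.11 and −3.41. With the same setting it was −2.41 for Ctxn3, −1.67 for Igfbpl1 and −1.64 for Ano2, against −3.45, −2.73 and −2.37. Lbhd2, at −3.81 against −4.10, and Sln, at −2.77 against −2.99, moved less. Averaging the probes of each gene put Eomes at −1.63, Igfbpl1 at −1.99 and Ano2 at −0.36.

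**Figure D2:**
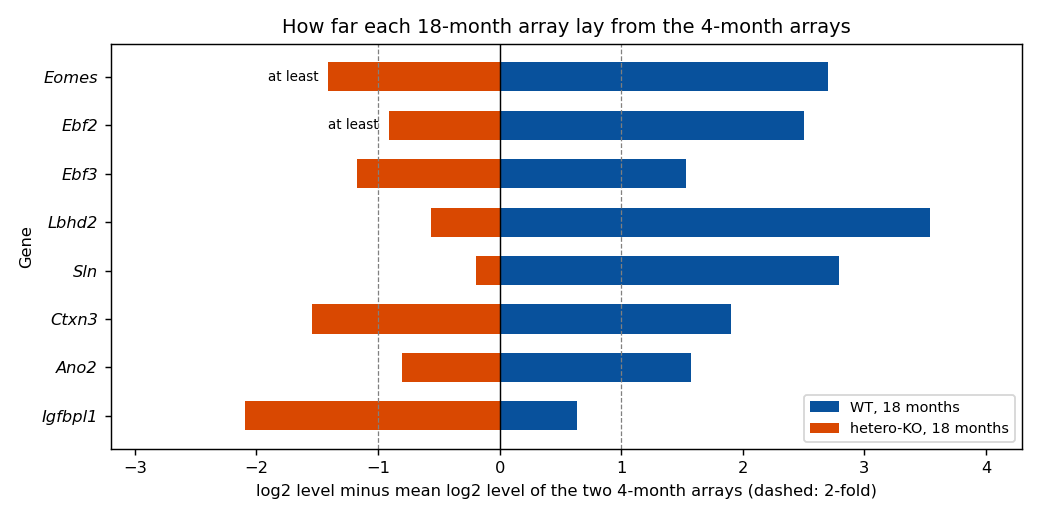
Distance of each 18-month array from the mean log2 level of the 4-month arrays, per gene, on a log2 scale; dashed lines mark 2-fold, and "at least" marks genes whose 18-month hetero-KO spot was not well above background. The WT bars of Lbhd2, Sln and Eomes are the longest, and Igfbpl1 alone has a longer hetero-KO bar.

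An array was said to stand apart for a gene where it was at least 2-fold above, or below, each of the others. The WT array of 18 months stood apart on the high side for 7 of the 8 genes, all but Igfbpl1, beside 0.188% of the 28190 genes well above background on at least 3 arrays. The hetero-KO array of 18 months stood apart on the low side for 4 genes, Eomes, Ebf3, Ctxn3 and Igfbpl1, beside 0.138% of all genes. Eomes, Ebf3 and Ctxn3 met both conditions, which 0.0142% of all genes did: 4 genes in all, the fourth being Zar1, a maternal gene of the oocyte. With normexp background the low side was under 2-fold for Eomes, Ebf3 and Ctxn3. Hetero-KO at 18 months then had levels of 0.0481, 0.122 and 0.0688, against 0.0572, 0.208 and 0.115 on the next array. The WT lead of Ano2 was under 2-fold in that setting too, at 0.259 against 0.130. Some array stood apart for 1.29% of all genes, and no 4-month array did so for any of the 8. All these shares follow from the choice of the genes on the 18-month difference, and nothing is read from them.

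The 4-month comparison was not used in choosing the genes. Hetero-KO was higher than WT for 4 of them (Eomes, Sln, Ano2 and Igfbpl1) and lower for the other 4. Genotype and sex makeup cannot be told apart at this age. None was at least 2-fold apart at 4 months, beside 2.43% of all genes (731 of 30141). The widest differences were those of Lbhd2, with a log2 difference of −0.74 (1.68-fold lower in hetero-KO), and Ano2, at 0.71 (1.63-fold higher). The other genes had log2 differences between −0.30 and 0.34, beside spot errors of 0.20 to 0.27 for a difference between the 4-month arrays. The median log2 difference of all genes was −0.02.

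**Figure D3:**
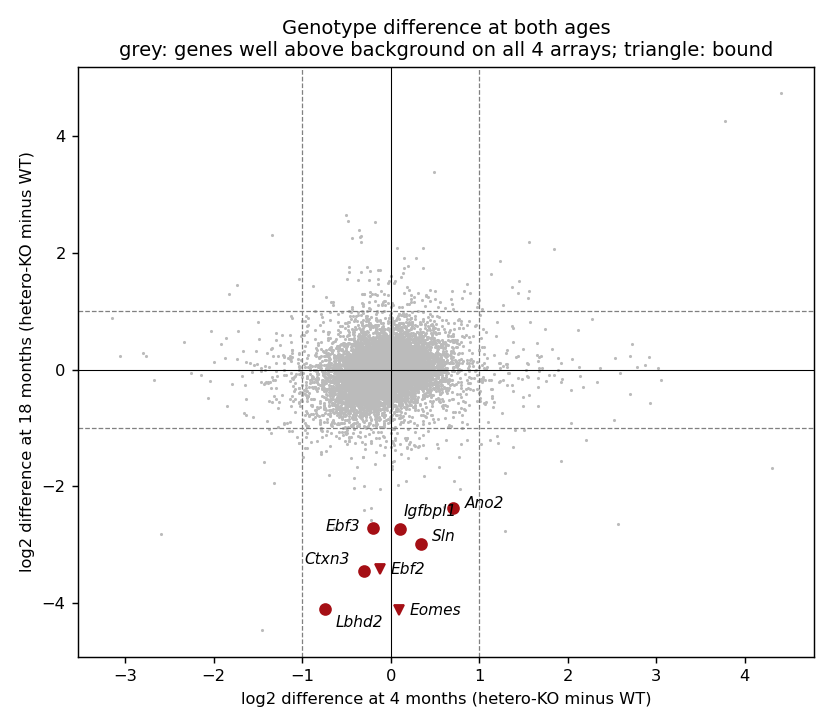
log2 difference of hetero-KO from WT at 18 months (vertical axis) against that at 4 months (horizontal axis), with genes well above background on all 4 arrays in grey, the 8 genes in red and bounds as triangles; dashed lines mark 2-fold. The 8 genes lie between −4.11 and −2.37 at 18 months and between −0.74 and 0.71 at 4 months.

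Between 4 and 18 months, the 8 genes were higher in the older WT array and lower in the older hetero-KO array. These age comparisons share the 18-month arrays with the comparison that chose the genes, so they too are descriptions. In WT, 7 genes were at least 2-fold higher at 18 months, beside 1.27% of all genes (381 of 30108). The rises were 8.98-fold for Lbhd2, 7.81-fold for Sln, 6.70-fold for Eomes and 5.43-fold for Ebf2, then 3.80-fold for Ano2, 3.37-fold for Ctxn3 and 2.69-fold for Ebf3, with Igfbpl1 at 1.61-fold. In hetero-KO, 5 genes were at least 2-fold lower at 18 months, beside 1.68% of all genes (494 of 29372). Igfbpl1 was 4.43-fold lower, Ctxn3 2.63-fold, Ano2 2.23-fold and Ebf3 2.11-fold, and Eomes at least 2.74-fold. Ebf2 was at least 1.80-fold lower, Sln 1.29-fold and Lbhd2 1.14-fold. The Lbhd2 value, −0.19 on the log2 scale, lay inside its spot error of 0.2. With the mean of its probes, Ano2 was higher at 18 months in hetero-KO. Lbhd2 and Sln had the widest age differences in WT and the narrowest in hetero-KO, and Igfbpl1 the reverse. Thalamus and striatum markers moved between the ages on the same arrays, and their part in these age differences was not tested.

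The genes with a second probe did not all repeat the 18-month difference. For Igfbpl1 the other probe, at chr4:45826242-45826301, had levels of 0.0687 and 0.0718 at 4 months in WT and hetero-KO and of 0.0918 and 0.0387 at 18 months. This was 2.37-fold lower in hetero-KO, with the arrays in the same order as for the probe used. For Ebf3 the other probe, at chr7:144387018-144387077, was well above background in WT at 18 months alone, with a level of 0.0188; the hetero-KO level was lower by at least 2.27-fold. For Eomes the other probe was not well above background on any array. Ano2 went the other way: its other probe passed the background test on the 18-month hetero-KO array alone, with a level of 0.0224, against 0.00707 in WT of that age. It is listed in the files under a different transcript than the probe used, and it was at least 2.94-fold higher in hetero-KO where the probe used was 5.18-fold lower. The direction for Ano2 thus differed between its probes, the other of which was dim. Ebf2, Lbhd2, Sln and Ctxn3 have 1 probe each and no second reading.

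**Figure D4:**
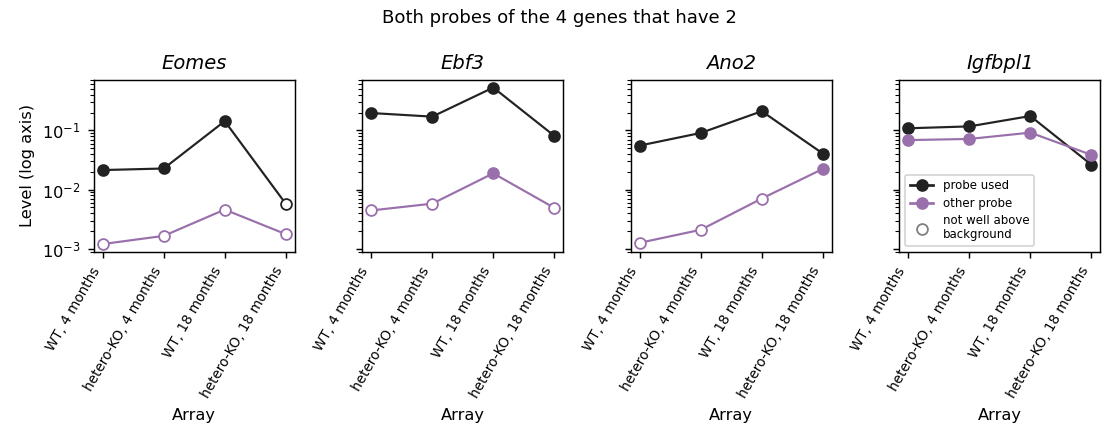
Levels on the 4 arrays (log axis) for both probes of the 4 genes that have 2, with the probe used in black, the other in purple, and open circles where a spot was not well above background. The order of the arrays repeats for Igfbpl1, whereas the other Ano2 probe is highest in hetero-KO at 18 months.

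Among relatives of the 8 genes, those well above background on all 4 arrays did not share the 18-month difference. Of the early B-cell factors and the zinc finger proteins that bind them, Ebf1, Ebf4, Zfp423 and Zfp521 had log2 differences of −0.04, −0.17, 0.25 and 0.01 of hetero-KO from WT at 18 months. Among 12 T-box factors well above background on all arrays, 3 were lower in hetero-KO, with a median of 0.13. T, the brachyury gene, was well above background on the 18-month arrays alone. Its levels there were 0.0229 in WT, the highest array, and 0.0112 in hetero-KO, which was 2.04-fold lower. Tbr1, which follows Eomes in the sequence from progenitor to neuron, was at 0.03. The calcium pump genes Atp2a1, Atp2a2 and Atp2a3 were at −0.03, 0.02 and −0.09, and phospholamban (Pln), the relative of sarcolipin that inhibits the pump in heart, was at 0.23. The cortexins Ctxn1 and Ctxn2 were at −0.01 and 0.18. The 7 measured anoctamins had a median of 0.02, with the calcium-activated chloride channel Ano1 at −0.84. The 11 genes of IGF binding and signalling had a median of −0.06, with Igfbp2 lowest at −0.59. In these 6 families 0 genes well above background on all 4 arrays were at least 2-fold apart, a count that leaves out T. The median of all genes was −0.01.

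Chromosomal neighbours were compared at 18 months. Of 16 protein-coding genes next to the 8 in the RefSeq order, 15 were on the array. Cdca2, beside Ebf2, and Ccdc192, beside Ctxn3, were well above background on 1 of the 18-month arrays and have only a bound. The other 13 were all less than 2-fold apart. Their log2 differences ran from −0.25 for Prrc1, beside Ctxn3, to 0.82 for Vwf, beside Ano2.

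Markers of cells known to express the 8 genes were compared next. In a mixture of tissue, fewer cells of a type and less RNA per cell cannot be told apart. Over all 24 lists, 214 distinct marker and family genes were well above background on at least 3 arrays. For 1 of them, Sp8, 18-month WT stood apart on the high side, beside 0.188% of all genes. Sp8, a zinc finger transcription factor of olfactory bulb interneurons and their precursors, had levels of 0.143 and 0.142 at 4 months in WT and hetero-KO and of 0.309 and 0.147 at 18 months. This was the form seen for Lbhd2 and Sln. The hetero-KO array of 18 months stood apart on the low side for 10 listed genes, beside 0.138% of all genes. Among the 10 were Slc17a6, Calb2, Trh, Lhx1, Lhx5, Zic1, Car8, Magel2 and Six3. Of these, Calb2 and Magel2 alone were higher with age in WT, as the 8 genes were, at log2 differences of 0.36 and 0.41. That difference was −2.02 for Slc17a6, −1.81 for Trh, −1.26 for Six3 and −0.9 for Lhx5. The lists were chosen with earlier results of these data known, so nothing is read from these counts.

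**Figure D5:**
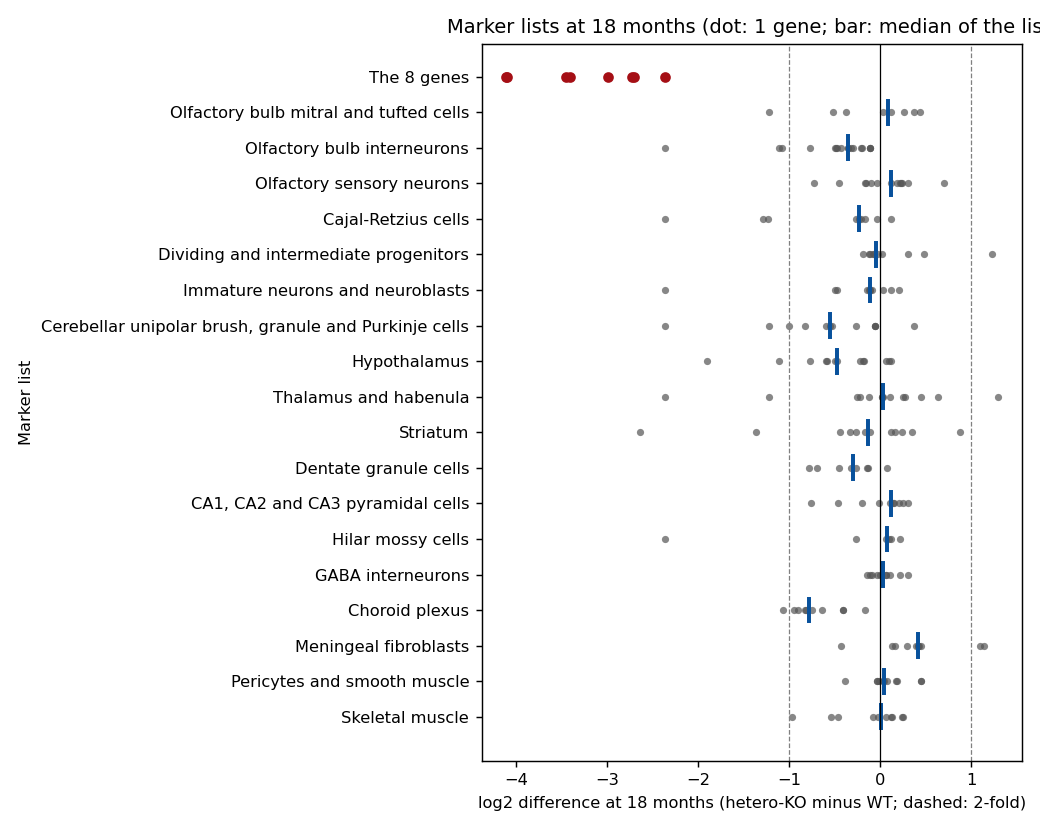
log2 difference of hetero-KO from WT at 18 months for the 8 genes (red) and for each gene of the marker lists that was well above background on all 4 arrays (grey), with the median of each list as a blue bar; dashed lines mark 2-fold. The list medians lie between −0.79 for choroid plexus and 0.41 for meningeal fibroblasts, and Calb2, at −2.37, is a single gene drawn in several lists.

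Mitral and tufted cells of the olfactory bulb express Eomes and Lbhd2, but their other markers lay on both sides of 0. Of 8 such genes well above background on all arrays, 3 were lower in hetero-KO at 18 months and the median was 0.08. Tbx21, a T-box factor of these cells, had levels of 0.0156 and 0.00774 at 4 months in WT and hetero-KO and of 0.0216 and 0.0150 at 18 months. The WT array of 18 months was highest for Tbx21 also, by 1.38-fold. It was highest for Doc2g too, by 1.165-fold, with a log2 difference of −0.38 at 18 months. Tbx21 and Doc2g were the only 2 of the list's 8 measured genes with that array highest. The cadherin Cdhr1 stood at 0.325, 0.672, 0.467 and 0.559 in the same order, and the WT array of 18 months was not the highest. Ms4a15 and Tfap2e were not well above background on any array. The summed level of the list was 12.7, 12.9, 12.1 and 13.3. Tbr1 and Slc17a7, at 5.16 and 3.62 in WT at 18 months, made up most of it. The sum thus says little about the dimmer markers. Slc17a6, a vesicular glutamate transporter shared with thalamus, was the one gene of the list at least 2-fold lower.

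Interneurons of the olfactory bulb behaved differently as a list. All 17 genes well above background on all 4 arrays were lower in hetero-KO at 18 months, with a median of −0.36, and 3 were at least 2-fold lower: Calb2 (−2.37), Trh (−1.12) and Sp8 (−1.08). The WT array of 18 months was highest for 11 of the 17. Calb2, which encodes the calcium-binding protein calretinin, had levels of 0.153 and 0.132 at 4 months in WT and hetero-KO and of 0.197 and 0.0382 at 18 months, low on the same array as Igfbpl1. Th, the enzyme of dopamine synthesis that marks one class of these cells, was at −0.32. The summed level of the list was 22.6, 24.9, 25.5 and 20.8 in WT and hetero-KO at 4 months and WT and hetero-KO at 18 months. Whether such cells had a part in the difference of the 8 genes was not tested.

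Olfactory sensory neurons are the cells in which Ano2 is best known. Of 13 measured markers, 6 were lower and 0 were at least 2-fold apart at 18 months, with a median of 0.12. Among these markers, 4 were highest in WT at 18 months. Cajal-Retzius cells, which express Ebf2, Ebf3 and often Eomes early in life, had 8 of 9 markers lower, with a median of −0.24. The homeobox genes Lhx1 and Lhx5 were at −1.24 and −1.29 and Calb2 was the third gene at least 2-fold lower. Neither Lhx1 nor Lhx5 was higher with age in WT, where their log2 age differences were −0.02 and −0.9. Trp73, the p53 relative that marks these cells, was at −0.21, with levels of 0.181, 0.151, 0.200 and 0.173 across the arrays, and Reln was at 0.12. The summed level of the list was 3.20, 3.66, 2.87 and 2.61. WT at 18 months was highest for 3 of its 9 genes. The part of Cajal-Retzius cells in the result was not tested.

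Dividing and intermediate progenitors, where Eomes is expressed in the adult dentate gyrus, did not show a shared difference. Of 10 markers, 6 were lower in hetero-KO at 18 months, with a median of −0.05. The division markers Mki67 and Top2a were at 0.30 and 0.48, and Neurog2, which acts just before Eomes in this lineage, was higher by 1.22 on the log2 scale, and by 1.55 at 4 months. Neurod4 was not well above background on any array. Among 11 markers of immature neurons 8 were lower, with a median of −0.12. Dcx, the microtubule protein of migrating neurons, was at −0.13 and Sox11 at −0.12, against the 6.64-fold lower level of Igfbpl1. The summed levels of the progenitor list were 5.55, 5.20, 5.21 and 4.95, and those of the immature neuron list 15.9, 17.7, 14.7 and 14.8. WT at 18 months was highest for 3 of the 10 progenitor genes and 4 of the 11 immature neuron genes.

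The cerebellum is another site of Eomes, in unipolar brush cells. Its list had 11 of 12 genes lower in hetero-KO at 18 months and a median of −0.55. Calb2, Zic1 (−1.23) and Car8 (−1.0) were at least 2-fold lower. WT at 18 months was highest for 4 of the 12. Lmx1a, a homeobox gene of unipolar brush cells, was at −0.53, Zic2 at −0.56 and Pcp2, a Purkinje cell gene, at −0.06. Barhl1 was also at −0.06, whereas Fat2 was higher in hetero-KO, at 0.37. Gabra6 and Cbln3, which mark granule cells of the cerebellum, were not well above background on any array. The summed level of the list was 16.1, 13.0, 13.6 and 8.44, lowest on the array where the 8 genes were lowest. Much of that sum was Zic1, at 5.28 and 2.25 in WT and hetero-KO at 18 months, and Otx2, at 3.26 and 1.83. Otx2 stands in the choroid plexus list as well. The part of the cerebellum in the result was not tested.

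Lists of other regions and tissues gave a mixed picture. All 10 choroid plexus genes were lower in hetero-KO at 18 months, with a median of −0.79, and all 10 were lower at 4 months too, with a median of −0.39. They were highest in WT at 18 months for 9 of 10. Their summed level was 169, 140, 203 and 159. In the hypothalamus list 10 of 13 genes were lower, with a median of −0.48, and the WT array of 18 months was highest for 9. Magel2, an imprinted gene of hypothalamic neurons, was lower by 1.91 on the log2 scale in that list. Of 8 dentate granule cell genes 7 were lower at 18 months, with a median of −0.30 and none at least 2-fold, beside 8 of 8 and −0.32 at 4 months. CA pyramidal cell genes had an 18-month median of 0.12. The meningeal list had 10 of 11 genes higher in hetero-KO, with a median of 0.41. In skeletal muscle, a site of sarcolipin, 5 of 10 genes were lower and the median was 0.01. Acta1, the actin of muscle fibres, was at −0.08 and Ckm was not well above background on any array. The parts of these cells in the difference of the 8 genes were not tested.

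Genes outside the 8 were ranked by how near their profile across the 4 arrays, with each gene's mean removed, came to a median profile. The median was taken over the 6 of the 8 genes well above background on all 4 arrays, which leaves out Eomes and Ebf2. That median profile was −0.18 and −0.21 at 4 months in WT and hetero-KO, and 1.63 and −1.29 at 18 months, on the log2 scale. Among 19181 genes with an official symbol and well above background on all 4 arrays, the 10 nearest included the predicted genes Gm13630, Gm38438 and Gm4952, and also Angptl7, Postn, Sfta3-ps, Cdc25c, Samd3 and Ngb. Postn, the matrix protein periostin, had levels of 0.0808 and 0.0623 at 4 months in WT and hetero-KO and of 0.187 and 0.0587 at 18 months, at a log2 distance of 0.93. Ngb, the oxygen-binding neuroglobin, was the last of the 10, at a distance of 0.98. Of the 6 genes that made the median profile, Ebf3 lay nearest to it and Lbhd2 farthest, at 0.27 and 1.49.

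The 2 sides of the profile were also ranked. The ranking took in genes with an official symbol and well above background on all 4 arrays, which leaves out Eomes and Ebf2. For the lead of the WT array of 18 months over the next array, Lbhd2 and Sln ranked highest among these, at 8.98-fold and 6.16-fold, and Ctxn3 ranked eighth. Between them stood Gh, the growth hormone gene of the pituitary, with levels of 0.0110, 0.0269, 0.162 and 0.0239 in WT and hetero-KO at 4 months and WT and hetero-KO at 18 months. The others were Cyp2a22, Gm38438, Prdm12 and Gm13630. Prdm12, a transcription factor of nociceptive and hypothalamic neurons, was 22.0-fold lower in hetero-KO at 18 months. Its levels were 0.0426, 0.0155, 0.190 and 0.00867, and it was low in hetero-KO at 4 months too. Gm33560 and Gm4952 completed the list.

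For the deficit of the hetero-KO array of 18 months under the next array, Igfbpl1 ranked second among the same genes, at 4.12-fold. Calb2 was next at 3.45-fold, then Sh3rf2, Magel2, Six3os1, Ctxn3, Six3, Prkg2 and Sfta3-ps, at 2.96-fold to 2.49-fold. Six3, a homeobox gene of the ventral forebrain, and its opposite-strand transcript Six3os1 were both in this list, as was Ctxn3. These genes were ranked by the same 18-month arrays and are named as a description.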

How the data were processed

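Hippocampal RNA was measured on 4 Agilent one-colour (Cy3) arrays, 1 per group, each with 200 ng from 3 mixed samples, per the labels' protocols. The values are linear spot intensity as deposited in the scanner files, made with Agilent Feature Extraction 11.5.1.1, per the submitters' processing notes. The authors' deposited table holds a ratio, the linear signal over the array's 75th percentile, for the 4-month arrays; its 18-month columns match no scanner file, so it was an alternative alone.

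Control and outlier spots were left out of the processed signal and each array was divided by its 75th percentile. Symbols were updated through RefSeq accessions (GRCm38.p6; 32994 of 56605 probes matched). Each gene took the values of whichever probe had the highest mean level, and counted as measured on an array with 50% or more of that probe's spots well above background. For a gene dim on one array, "at least" marks a bound: the brighter level divided by the dim probe's own level or, if larger, the lowest level called well above background on that array. Genes at least 2-fold apart were counted, without a test. Scripts (Python 3.11.15, R 4.3.3) were tested on simulated data.

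Named genes were the 8 genes with all probes, the 10 nearest profiles, the 10 largest WT leads, the 10 largest hetero-KO deficits and up to 4 genes per list with its defining markers; Zbtb18, Eif2s3y, Xist, Zar1 and the neighbours Prrc1 and Vwf were added after their values were seen. Some genes that the rule takes in are not reported here. The genes and lists were chosen with earlier results of these data known. Alternatives were normexp background (limma 3.58.1), quantile or median scaling, the mean of a gene's probes, no filter, 1.5-fold and 3-fold thresholds, and the deposited table. The number of arrays limits the precision.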

Additional observations from a re-analysis of the deposited data

Results flagged for a closer look

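For all 8 genes the older WT array lay above the younger WT array, while the older hetero-KO array lay below the younger hetero-KO array. In hetero-KO the Lbhd2 difference of −0.19 was inside its spot error of 0.2. Ano2 reversed there, to 1.13, with the mean of its probes. The age difference in WT minus that in hetero-KO, on the log2 scale, was 4.20 for Eomes, 3.36 for Lbhd2, 3.33 for Sln, 3.29 for Ebf2, 3.15 for Ctxn3, 3.08 for Ano2, 2.84 for Igfbpl1 and 2.51 for Ebf3. The values of Eomes and Ebf2 use a bound. For 4 of the genes the measured genotype difference was above 0 at 4 months and below 0 at 18 months. At 4 months it was 0.09 for Eomes and 0.11 for Igfbpl1, inside spot errors of 0.25 and 0.21, and 0.34 for Sln and 0.71 for Ano2. The 4-month pools also differed in sex makeup, which cannot be told apart from genotype there. The genotype difference at 18 months minus that at 4 months was −4.20 for Eomes, −3.33 for Sln, −3.08 for Ano2 and −2.84 for Igfbpl1. With 1 array per group, none of these differences was tested, and the genes were chosen on the 18-month arrays.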

How the results depend on the processing

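The 18-month difference held its direction in every alternative built from the scanner files: all 40 values were below 0, from −4.63 to −0.36, and 39 were at −1 or lower, the exception being Ano2 with the mean of its probes. Of all 159 values under these alternatives, 129 kept within the error, 29 moved and 1 reversed, Ano2 in the hetero-KO age comparison, at 1.13 with the mean of its probes. The count of 5 genes at least 2-fold apart between the ages in hetero-KO was 1 with normexp background, 3 with the mean of probes and 1 at a 3-fold threshold. The 4-month count of 0 became 2 at a 1.5-fold threshold.

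The authors' deposited table gave other results for the 18-month arrays. In it, 0 genes were at least 2-fold lower in hetero-KO at 18 months, and 0 had an array that stood apart. With age in WT, 1 gene was at least 2-fold higher. In the authors' deposited table the 18-month difference reversed to 0.49 for Ebf2, 0.17 for Lbhd2, 0.41 for Sln, 0.91 for Ctxn3 and 0.52 for Igfbpl1. In the authors' deposited table the WT age difference was −2.32 for Eomes, −2.03 for Ebf3, −1.13 for Lbhd2 and −1.11 for Sln, and the hetero-KO age difference 1.74 for Ctxn3 and 0.04 for Ano2. The cause was not tested. Signal near background limits Eomes and Ebf2 in hetero-KO at 18 months. No paired analysis was possible because each group has 1 array.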

Other observations

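As far below WT as Ano2, the member with the smallest fold, stood 24 other genes in hetero-KO at 18 months. The WT array of 18 months stood apart on the high side for 9 of these and the hetero-KO array on the low side for 2. Over all genes the shares were 0.188% and 0.138%. The gap between these same arrays chose the 24 genes, so nothing is read from the counts. Those with a known role included Gh and Prdm12, the oocyte genes Zar1 and Zp2, the protease gene Corin, the ubiquitin-like modifier gene Ubd and the olfactory receptor gene Olfr1461. They were named after their values were seen.

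A probe at chr7:144393310-144393369, which the array's description ties to early B-cell factor 3 but which is not listed under Ebf3, did not repeat the Ebf3 values. It lies in the opposite orientation to the Ebf3 probes. Its levels were 0.0134 and 0.0113 in WT and hetero-KO at 4 months and 0.0106 in WT at 18 months, while the hetero-KO spot of 18 months failed the background test. It was picked out after its values were seen.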
